A study of Mus musculus with 12 samples.

Results

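The genes described here are 46 genes of DNA replication and mitosis among the 47593 genes measured by RNA sequencing in 12 mammary tumors of mosaic analysis with double markers (MADM) mice. They were taken by symbol from a list that divides them into 18 replication genes, from Mcm2 to Rrm2, and 28 mitotic genes, from Mki67 to Mybl2. All 46 were found. The tumors came from 9 untreated female mice of mixed background, labelled MADM RG;GR, with 1 tumor from each of 7 mice, tumors 3 and 4 from an eighth and tumors 10, 11 and 12 from the ninth. The mice carried the MADM TG and GT cassettes, a floxed Brca1 allele, a p53 knockout allele and the MMTV-Cre transgene, which drives recombination in mammary epithelium and leaves rare Brca1, p53-null cells in a heterozygous animal. Pieces of whole tumor were sequenced, so heterozygous and host cells of the gland could be included, and the animals' ages were not given in the labels. Normal gland was not analysed here, so the comparisons are between tumors and between mice.

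Cells copy their DNA in S phase and part the copies in mitosis. Replication begins when origin licensing factors load the ring-shaped Mcm2-7 helicase on DNA, and polymerases follow the opened helix. At mitosis, cyclin-dependent kinase 1 with its cyclins drives entry, kinetochores attach chromosomes to the spindle, and the anaphase-promoting complex ends the phase by having cyclins degraded. Genes of the first group are typically switched on by E2F factors around the start of S phase. Genes of the second group peak later, through CHR elements, which recruit complexes that include Mybl2 and Foxm1, and CCAAT boxes, which are bound by NF-Y. Both programmes are commonly read as proliferation in breast tumors.

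The values were TPM, a length-corrected measure of each gene's share of a tumor's transcripts, so levels of different genes may be compared within a tumor, and depth and counting error are unknown. Tumors 2 and 8 stood apart in the markers of their cells. In tumor 2 the 7 mammary epithelial markers summed to 1.38 TPM, against a median of 4594 TPM over the 12 tumors. Epcam and Krt19 were listed there at 0, while the 8 B-lineage markers summed to 8161 TPM and the same list ranged from 12.9 to 336.8 TPM elsewhere. Tumor 9, in which nearly all members were lowest, had that 336.8 TPM and the highest sum of the 5 T-cell markers, 81.7 TPM, followed by tumor 8 with 65.4 TPM. Its epithelial sum of 3006 TPM was within the range of the others. Tumor 8 had 158.7 TPM of epithelial and 3009 TPM of fibroblast markers. The macrophage markers ranged from 156.2 to 1658 TPM and the endothelial markers from 37.9 to 135.0 TPM. The part of these cells in any value below was not tested. Most comparisons between mice are given with and without tumors 2 and 9, while the lowest, median and highest values of single genes cover all 12 tumors. Tumor 9 stood apart mainly in the members themselves, and tumor 8 was kept. Leaving out tumors 2 and 9 is thus no control for cell content. Brca1 was listed at 6.93 to 24.7 TPM and Trp53 at 30.2 to 74.2 TPM. These values count transcripts of all cells in a piece and do not check the alleles.

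The promoter windows of the members differed by group in the motifs they held. RefSeq promoter windows of 300 bases, from 250 before to 50 after the start site on GRCm38.p6, were matched for 37 members, 14 replication and 23 mitotic. Windows were not matched for Mcm4, Gins1, Gins2, Pole, Ccna2, Aurkb, Kif20a, Tpx2 and Foxm1. The letters searched on both strands were TTTCCCGC, TTTCGCGC, TTTGCCGC and TTTGGCGC for E2F, TTTGAA for the CHR element and CCAAT for the NF-Y box, with matches of different E2F spellings allowed to overlap. These spellings are called an E2F motif here. A match lay in 8 of 14 replication windows, those of Mcm3, Mcm5, Mcm6, Mcm7, Cdc6, Cdt1, Rfc3 and Pola1. It lay in 1 of 23 mitotic windows, that of Cdk1, and in 2.6% of the promoters of all 27025 genes. The CHR letters showed the opposite division, with 15 of 23 mitotic windows and 1 of 14 replication windows (Mcm2), against 20.2% of all genes.

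The mitotic windows with CHR letters were those of Mki67, Top2a, Cdk1, Ccnb2, Cdc20, Plk1, Aurka, Bub1b, Ttk, Kif11, Kif23, Cenpf, Cenpa, Ube2c and Ndc80. Of the 19 CHR matches in them, 16 began within 100 bases of the start site. The NF-Y letters did not divide the groups in this way: 10 of 14 replication and 17 of 23 mitotic windows held them, against 41.1% of all genes. A further spelling of the CHR element, TTTAAA, lay in 2 of 14 replication windows, 8 of 23 mitotic windows and 14.9% of all genes. Median GC content was 58.5% in the replication windows, 59.0% in the mitotic windows and 52.8% over all genes. Matches are descriptions of letters and do not show binding. Stretches cut from the windows of 6 genes are printed 5′ to 3′ to show both layouts, the first 3 of each group in list order that held the group's motif. Capitals mark the E2F and NF-Y letters in the replication genes and the CHR and NF-Y letters in the mitotic genes, on either strand. For Mcm3 the E2F matches lay after the start site and 30 bases around them are given. The other sequences end at the base before it. Matches outside a printed stretch are not shown: Mki67 had NF-Y letters at -188, -166 and -141 from the start site, upstream of its stretch, and further NF-Y letters lay at -227 in Top2a, -208 in Cdk1, 7 in Mcm5 and -117, -72 and -32 in Mcm3.
Mcm3, chr1:20820265-20820294, minus strand: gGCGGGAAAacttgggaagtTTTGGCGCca
Mcm5, chr8:75109336-75109508, plus strand: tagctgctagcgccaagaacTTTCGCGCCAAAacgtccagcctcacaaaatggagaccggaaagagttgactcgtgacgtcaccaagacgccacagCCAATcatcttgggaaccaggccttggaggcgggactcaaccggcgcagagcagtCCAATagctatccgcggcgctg
Mcm6, chr1:128359706-128359835, minus strand: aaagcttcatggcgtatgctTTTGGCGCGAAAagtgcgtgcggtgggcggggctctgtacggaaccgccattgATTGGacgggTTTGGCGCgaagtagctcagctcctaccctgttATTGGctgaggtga
Mki67, chr7:135716380-135716515, minus strand: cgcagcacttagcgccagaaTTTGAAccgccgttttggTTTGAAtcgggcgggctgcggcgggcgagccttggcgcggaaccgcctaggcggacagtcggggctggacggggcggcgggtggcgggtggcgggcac
Top2a, chr11:99024190-99024388, minus strand: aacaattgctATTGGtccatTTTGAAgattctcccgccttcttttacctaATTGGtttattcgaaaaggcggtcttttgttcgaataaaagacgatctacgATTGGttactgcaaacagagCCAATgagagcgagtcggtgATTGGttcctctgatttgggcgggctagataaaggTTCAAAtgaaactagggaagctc
Cdk1, chr10:69352913-69353032, minus strand: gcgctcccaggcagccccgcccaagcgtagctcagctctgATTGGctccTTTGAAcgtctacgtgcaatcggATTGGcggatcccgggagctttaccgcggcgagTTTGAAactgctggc
In Mcm5 and Mcm6 the leading run of capitals is a pair of overlapping E2F matches, 1 on each strand. Top2a carried its NF-Y letters in both directions.

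**Figure D1:**
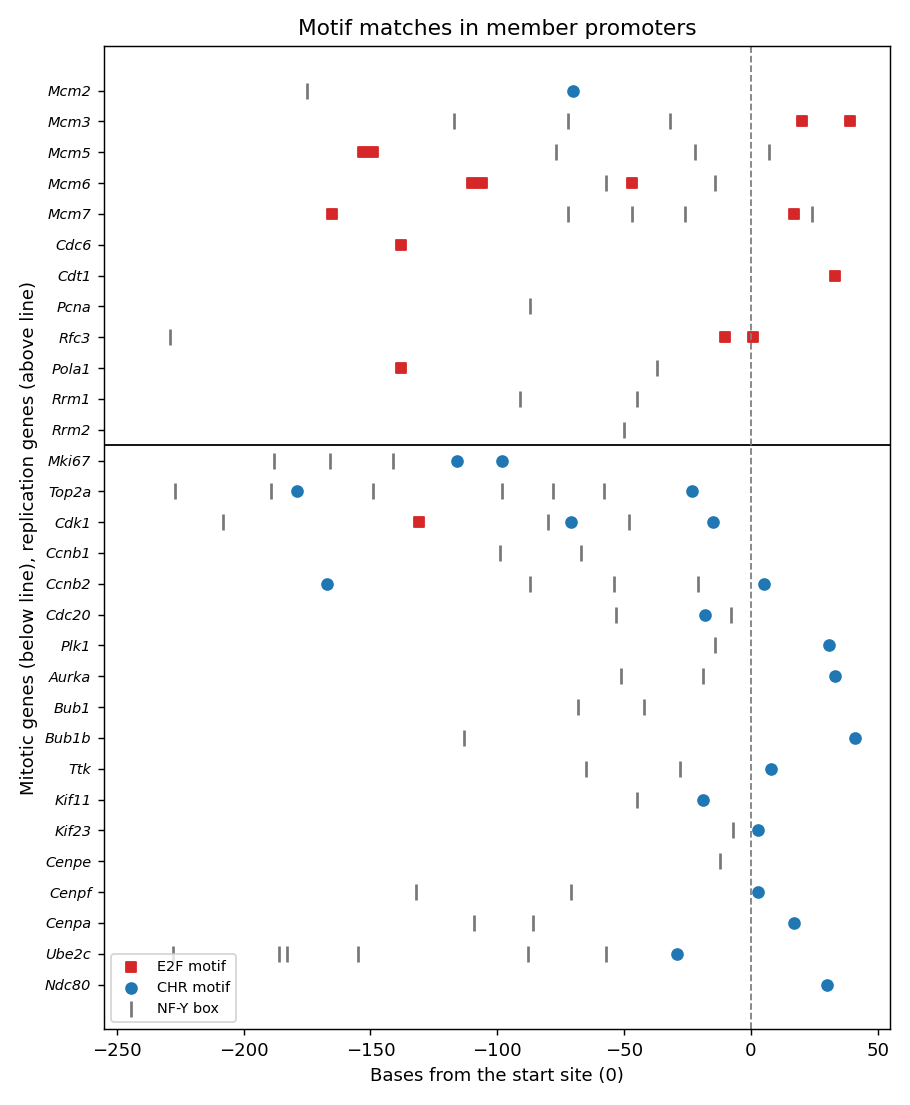
Motif matches in the promoter windows of the members, by position of the first base of each match from the start site (x axis, bases), 1 row per gene with at least 1 match. Red squares (E2F) lie mostly in the replication rows, in 8 of 14 windows, and blue circles (CHR) mostly in the mitotic rows, in 15 of 23 windows, while grey bars (NF-Y) occur in both.

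All 46 members were at 1 TPM or more in every tumor, as were 71.2% of the 16802 expressed genes (mean of 1 TPM or more over mice). The lowest member value was 2.77 TPM, for Cdc6 in tumor 9, and the highest 549.7 TPM, for Pcna in tumor 2. The median over the genes of a group, on log2(TPM + 1) and averaged per mouse, was 5.79 ± 0.59 for replication and 5.61 ± 0.62 for mitotic genes (SD, n = 9 mice). The members shared their extreme tumors: 45 of 46 members were lowest in tumor 9, and 23 were highest in tumor 2 and 16 in tumor 3. The shares of all expressed genes that were lowest or highest in these tumors were not counted.

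Among the origin licensing factors, Cdc6, which helps load the helicase, was the least abundant member, with a lowest value of 2.77, a median of 9.65 and a highest value of 28.7 TPM. Its partner Cdt1 ranged from 12.1 TPM in tumor 9 to 64.7 TPM in tumor 8 with a median of 41.6 TPM. Cdt1 was the only member highest in tumor 8. It was also low in tumor 7, at 27.0 TPM, where the mitotic genes were high.

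The 6 subunits of the Mcm2-7 ring, present in equal numbers in the complex, were not equal in transcripts. Mcm6 took the largest share of their summed TPM in 11 of 12 tumors, from 20.8% to 29.2% in those 11. Mcm7 led in tumor 2, where it took 26.8% and Mcm6 19.0%. Mcm6 (lowest 47.5, median 147.8, highest 220.9 TPM) and Mcm7 (38.9, 104.3 and 290.4 TPM) were followed by Mcm3 (42.4, 94.2 and 166.8 TPM). Mcm5 ranged from 33.7 to 196.3 TPM with a median of 77.7 TPM. Mcm4 (27.6, 62.8 and 118.4 TPM) and Mcm2 (26.5, 61.9 and 122.4 TPM) were the scarcest, and 1 of the pair was lowest in 11 of 12 tumors. Summed over the ring, tumor 9 reached 216.6 TPM and tumor 2 reached 1082 TPM, while the other 10 ranged from 455.7 to 923.7 TPM.

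Gins1 and Gins2 encode subunits of the GINS complex, which joins the ring in the active helicase. Gins1 had a lowest value of 5.93, a median of 21.9 and a highest of 36.2 TPM, and Gins2 values of 9.66, 23.6 and 37.2 TPM. Pcna, the sliding clamp, was the most abundant member, at 89.6, 310.0 and 549.7 TPM. The clamp loader subunits Rfc3 (29.8, 57.2 and 113.8 TPM) and Rfc4 (21.9, 37.2 and 105.3 TPM) kept an order, with Rfc3 above Rfc4 in 12 of 12 tumors by a ratio of 1.01 to 2.48. The catalytic polymerase subunits were lower, with Pola1 (alpha) at 5.00, 27.3 and 58.1 TPM and Pole (epsilon) at 5.52, 16.9 and 40.4 TPM. Enzymes of nucleotide supply were Tyms, thymidylate synthase (12.9, 30.1 and 77.1 TPM), and both subunits of ribonucleotide reductase.

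Ribonucleotide reductase showed how unevenly members of 1 enzyme could vary. Rrm1, the large subunit, had a lowest value of 25.3, a median of 83.5 and a highest value of 199.2 TPM. Rrm2, the small subunit whose level follows S phase, had values of 18.2, 51.3 and 178.8 TPM. Rrm2 exceeded Rrm1 in tumors 3, 4, 7 and 8 and lay below it in the other 8. The ratio of Rrm2 to Rrm1 ran from 0.392 in tumor 5 to 1.45 in tumor 3.

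Of the mitotic genes, those of chromosome structure and proliferation staining come first. Mki67, which encodes the Ki67 antigen that coats mitotic chromosomes, had a lowest value of 33.0, a median of 74.3 and a highest of 170.3 TPM. Top2a, the topoisomerase that untangles sister chromatids, had the highest median of the mitotic genes, at 43.7, 158.2 and 415.9 TPM. Cenpa, the centromeric histone variant, stood at 27.9, 92.4 and 220.2 TPM. Top2a exceeded Mki67 in 12 of 12 tumors, by 1.06 times in tumor 3 and 3.84 times in tumor 7.

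Entry into mitosis is represented by Cdk1 and its cyclins. Cdk1 had a lowest value of 25.9, a median of 82.1 and a highest of 152.6 TPM, and Ccna2, cyclin A2, values of 23.7, 86.0 and 192.5 TPM. The B cyclins Ccnb1 (19.2, 78.0 and 102.2 TPM) and Ccnb2 (22.9, 59.2 and 162.9 TPM) had different high points, tumor 7 for Ccnb1 and tumor 2 for Ccnb2. Their ratio was 0.557 in tumor 2 and ran from 0.890 to 1.79 over the tumors other than 2 and 9. The kinase Plk1 stood at 12.7, 46.7 and 84.8 TPM.

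The ratio of the Aurora kinases varied widely among the 13 pairs of partner genes compared, with an SD of 0.88 on the log2 scale over 9 mice and 0.83 without tumors 2 and 9. For E2f1 and Mybl2 these were 0.88 and 0.45. Aurka, which acts at spindle poles with its activator Tpx2, had a lowest value of 15.8, a median of 51.5 and a highest of 98.4 TPM. Aurkb, which acts at centromeres with Birc5 (survivin), had values of 19.7, 44.9 and 101.1 TPM. The ratio of Aurka to Aurkb was 0.525 in tumor 2 and 2.79 in tumor 3, and it was above 1 in 6 of 12 tumors. Tpx2 stood at 16.6, 60.4 and 90.0 TPM and Birc5 at 42.0, 120.4 and 217.5 TPM.

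The checkpoint and kinetochore genes had moderate levels. The spindle checkpoint kinases Bub1 (5.64, 30.6 and 70.6 TPM) and Ttk (5.82, 19.3 and 43.2 TPM) reached lower levels in tumor 9 than Bub1b, the checkpoint protein BubR1 (25.8, 51.1 and 75.4 TPM). Bub1 was below Bub1b in 12 of 12 tumors. Nuf2 (13.7, 31.4 and 89.4 TPM) and Ndc80 (9.07, 29.4 and 67.3 TPM) encode subunits of 1 microtubule-binding complex, yet their ratio ran from 0.736 in tumor 3 to 2.00 in tumor 7. Cenpe, a kinetochore motor, stood at 5.03, 23.4 and 43.1 TPM and Cenpf, a kinetochore-associated protein, at 4.32, 19.8 and 33.9 TPM.

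Of the spindle motors, Kif11, which pushes the poles apart, had a lowest value of 15.4, a median of 35.4 and a highest of 101.1 TPM. The cytokinesis motors Kif20a (13.4, 53.5 and 66.8 TPM) and Kif23 (9.66, 45.7 and 89.6 TPM) were highest in tumors 10 and 3. Melk, a mitotically expressed kinase, stood at 15.9, 21.8 and 44.0 TPM. Exit from mitosis is represented by Cdc20, an activator of the anaphase-promoting complex (22.2, 74.6 and 128.9 TPM), and by Ube2c, the ubiquitin-conjugating enzyme that works with that complex (31.9, 139.4 and 328.0 TPM). The ratio of Ube2c to Cdc20 was 6.64 in tumor 7 and between 1.44 and 2.04 in the other 11 tumors.

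The transcription factors Foxm1, Mybl2 and E2f1 were listed with the mitotic genes. Foxm1 and Mybl2, activators of late cell cycle genes, had lowest, median and highest values of 12.5, 42.1 and 82.6 TPM and of 6.89, 29.7 and 50.4 TPM. E2f1, a factor of the replication programme, had values of 18.6, 45.2 and 123.8 TPM and differed in its pattern. It was lowest in tumor 2, at 18.6 TPM, where 23 members were highest, and highest in tumor 7. The ratio of E2f1 to Mybl2 ran from 0.411 in tumor 2 to 3.16 in tumor 9, and from 1.21 to 2.78 in the other 10 tumors.

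**Figure D2:**
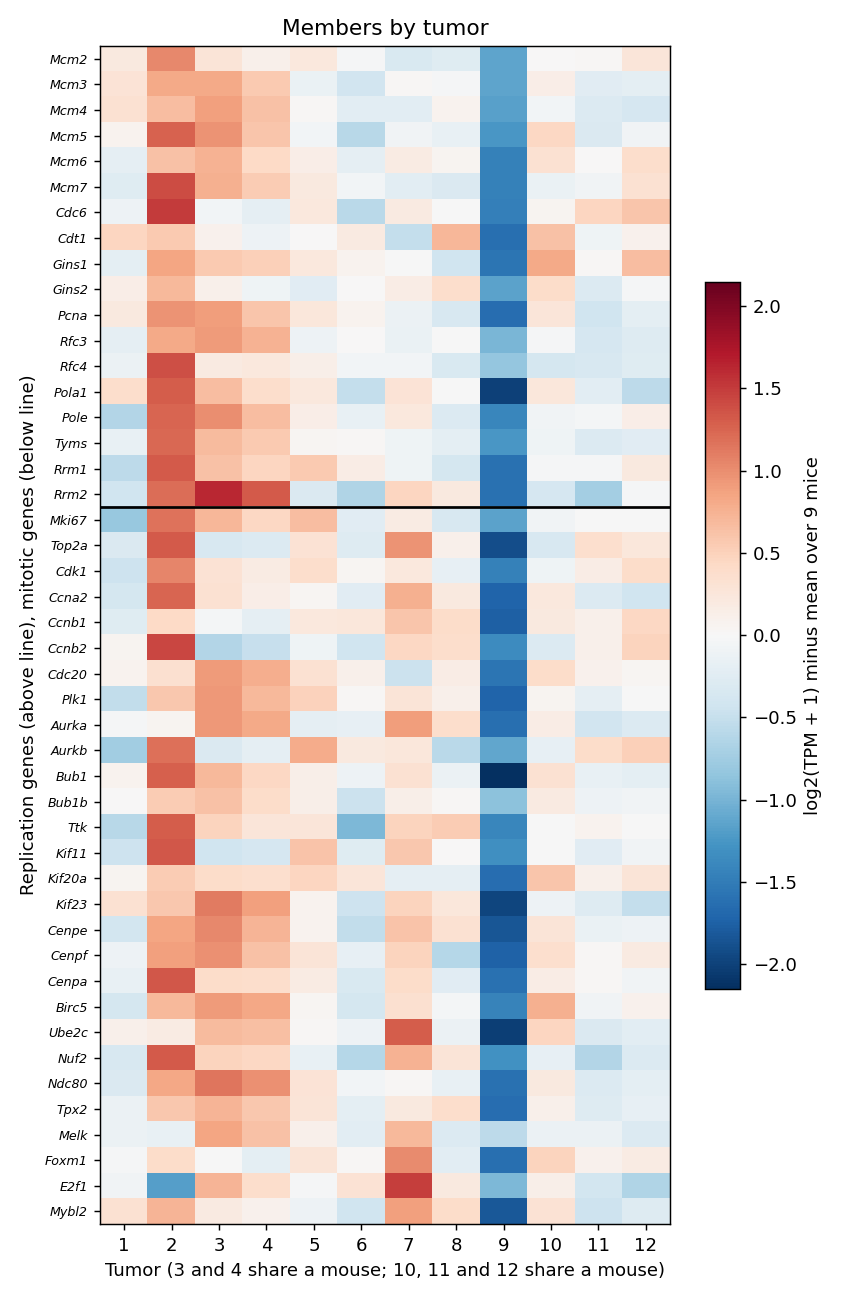
Log2(TPM + 1) of the 46 members in the 12 tumors, each gene shown as its difference from its mean over 9 mice (red higher, blue lower). Tumor 9 is the darkest blue column, with 45 of 46 members at their lowest, tumors 2 and 3 hold the highest value of 23 and 16 members, and E2f1 is blue in tumor 2 and red in tumor 7. The shares of all expressed genes with these extremes were not counted.

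Replication and mitotic genes were both high in tumor 2 and both low in tumor 9. Set against each gene's mean over mice, they parted most in tumor 7. The median of the replication genes was above that of the mitotic genes in 7 of 9 mice, with a mean difference of 0.19 ± 0.27 on the log2 scale (SD, n = 9), which is within its spread. It was 0.04 ± 0.24 with means in place of medians, 0.12 ± 0.25 without Foxm1, E2f1 and Mybl2, and 0.10 ± 0.24 without tumors 2 and 9 (n = 7). The difference ran from -0.25 in tumor 7 to 0.51 in tumor 9. Each gene was then centred on its mean over mice, which removes its level. The mean difference was then -0.004 ± 0.25 (SD, n = 9), above 0 in 5 of 9 mice. On this scale tumor 7 had mitotic genes at 0.48 and replication genes at -0.07. It had 26 of 28 mitotic but 7 of 18 replication genes above their own mean. Tumor 2 leaned the other way, with replication at 1.12 and mitotic genes at 0.78, and tumor 9 had both groups low, at -1.43 and -1.61. Over the 9 mice the medians of the groups had a Pearson r of 0.90 and a Spearman rho of 0.73. Without tumors 2 and 9 these were 0.55 and 0.43 over 7 mice, so the relation rests largely on those tumors. The points share a normalization in each tumor. Because whole tissue was sequenced, fewer dividing cells and less of these transcripts per cell cannot be told apart.

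**Figure D3:**
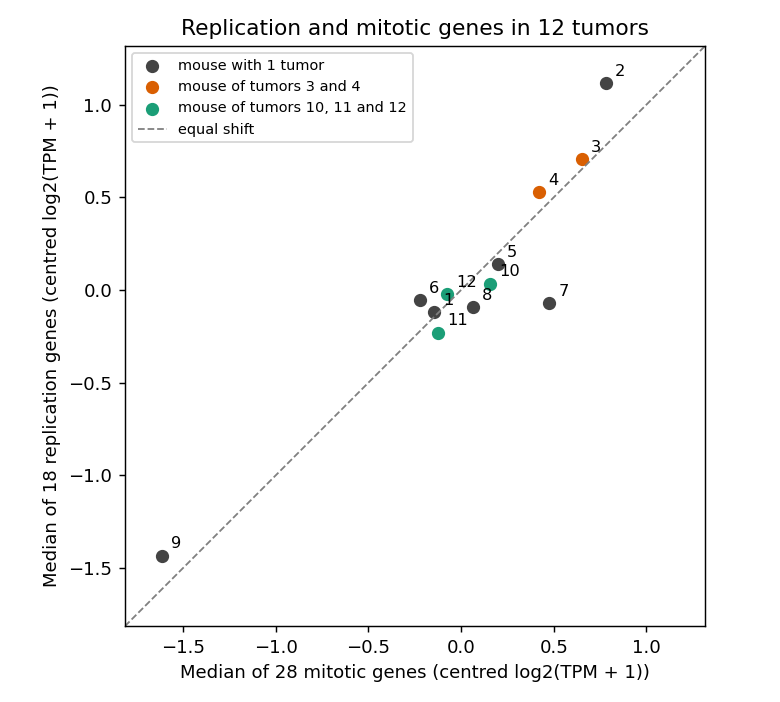
Median of the 18 replication genes (y axis) against that of the 28 mitotic genes (x axis) in each of 12 tumors, both as log2(TPM + 1) centred on each gene's mean over mice, with a dashed line of equal shift. Tumor 9 lies far below and tumor 2 above the rest, and tumor 7 lies right of the line at 0.48 for mitotic and -0.07 for replication genes.

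The members varied more between mice than the typical expressed gene when all mice were counted. The median SD over 9 mice was 0.75 for the 46 members and 0.57 for the 16802 expressed genes on the log2 scale. Without tumors 2 and 9 it was 0.36 for replication genes and 0.44 for mitotic genes, on either side of the 0.41 of all expressed genes, and 0.39 over all members (7 mice). Rrm2 had the highest SD of the members over 9 mice, 0.95, and also over the 7, 0.73. The lowest SD belonged to Melk over 9 mice, at 0.44, but to Gins2 over the 7, at 0.19, where Melk stayed at 0.44 and ranked 31 from the lowest of 46. From its lowest to its highest tumor a member varied by 2.77 to 12.5 times over all 12 tumors, and by 1.52 to 5.24 times over the 10 without tumors 2 and 9.

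A difference between mice larger than that between tumors of a mouse was called for 43 of 46 members by limma's moderated F-test with Benjamini-Hochberg adjusted p under 0.05, where 43.1% of all 16802 genes were called. Gins1, Gins2 and Birc5 were the exceptions. The smallest adjusted p among the members, by this test, was 0.0057 for Cenpa, which ran from 27.9 TPM in tumor 9 to 220.2 TPM in tumor 2. These calls rest on few tumors. Without tumors 2 and 9, 1 member was called, Mki67 with a limma Benjamini-Hochberg adjusted p of 0.049, where 5.83% of genes were. The count was 17 without tumor 9 (32.5% of genes), 5 without tumor 3 (12.5%) and 6 without tumor 4 (13.1%). The within-mouse spread comes from the mice of tumors 3 and 4 and of tumors 10 to 12 alone, with 3 residual degrees of freedom, and the labels do not say how tumors of 1 mouse are related. Between tumors of the same mouse the median absolute difference of the members was 0.17 to 0.39 on the log2 scale (4 pairs), against 0.20 to 2.43 between tumors of different mice (62 pairs) and 0.20 to 0.83 when pairs with tumor 2 or 9 were left out (41 pairs). Over all expressed genes the same measure was 0.19 to 0.36 within a mouse and 0.26 to 0.89 between mice, or 0.26 to 0.58 without tumors 2 and 9.

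The mouse of tumors 10 to 12 had lower levels of many members than the mouse of tumors 3 and 4. On the log2 scale 37 of 46 members had a difference below 0, with a median of -0.66 over replication and -0.60 over mitotic genes, where all genes had a median of -0.01. Lower levels were called for 11 members by limma with Benjamini-Hochberg adjustment, where 5.3% of all genes were called lower, and higher levels for 0 members, where 3.43% were called higher. The 11 were Mcm4, Rfc3, Tyms, Rrm2, Mki67, Plk1, Aurka, Kif23, Ndc80, Tpx2 and Melk. At an unadjusted p under 0.05 by limma, 28 members were lower, where 17.3% of all genes were, and 1, Ccnb2, was higher, where 14.1% were. The 5 fibroblast markers moved with this comparison: each was higher in both tumors 3 and 4 than in all of tumors 10 to 12, and their sum was 1049 and 2706 TPM in tumors 3 and 4 against 588.2, 499.1 and 483.0 TPM. None of the 5 was at 0. The sums of the other marker lists overlapped between the mice. The part of these markers in the result was not tested. Rrm2 had the largest difference. It stood at 178.8 and 145.1 TPM in tumors 3 and 4 and at 44.5, 34.1 and 56.4 TPM in tumors 10 to 12, with no overlap, a log2 difference of -1.85 ± 0.24 (SE) and an adjusted p of 0.023 by limma. Kif23 stood at 89.6 and 75.8 TPM against 37.7, 33.4 and 28.1 TPM, a log2 difference of -1.30 ± 0.17 with an adjusted p of 0.024 by limma. Ndc80 stood at 67.3 and 59.9 TPM against 34.2, 24.1 and 25.5 TPM, a log2 difference of -1.17 ± 0.20 with an adjusted p of 0.034 by limma.

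Members of 1 function did not all lie on the same side in this pair of mice. Ccnb2, at 38.2 and 42.2 TPM in tumors 3 and 4, stood at 48.4, 64.3 and 84.0 TPM in tumors 10 to 12, a log2 difference of 0.66 ± 0.25 that was not called (adjusted p 0.14, limma). Aurkb, unlike Aurka, had a log2 difference of 0.50 ± 0.24, Cdc6 of 0.49 ± 0.23 and Top2a of 0.41 ± 0.23, none of them called by limma. The calls depend on tumors 3, 4, 11 and 12: 0 members were called by limma without any 1 of them, where 0.101%, 0.107%, 0.667% and 0.518% of all genes were, in that order. At an unadjusted p under 0.05 by limma, 15, 23, 19 and 21 members were then lower, against 9.7%, 10.9%, 13% and 15.6% of all genes. Without tumor 10, 28 members were called by limma, where 20.8% of genes were: 25 lower, against 10.9% of genes, and 3 higher (Top2a, Ccnb2 and Aurkb), against 9.9%. Without tumor 3 or 4 the tumor left in that mouse is assumed to vary like those of the other.

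**Figure D4:**
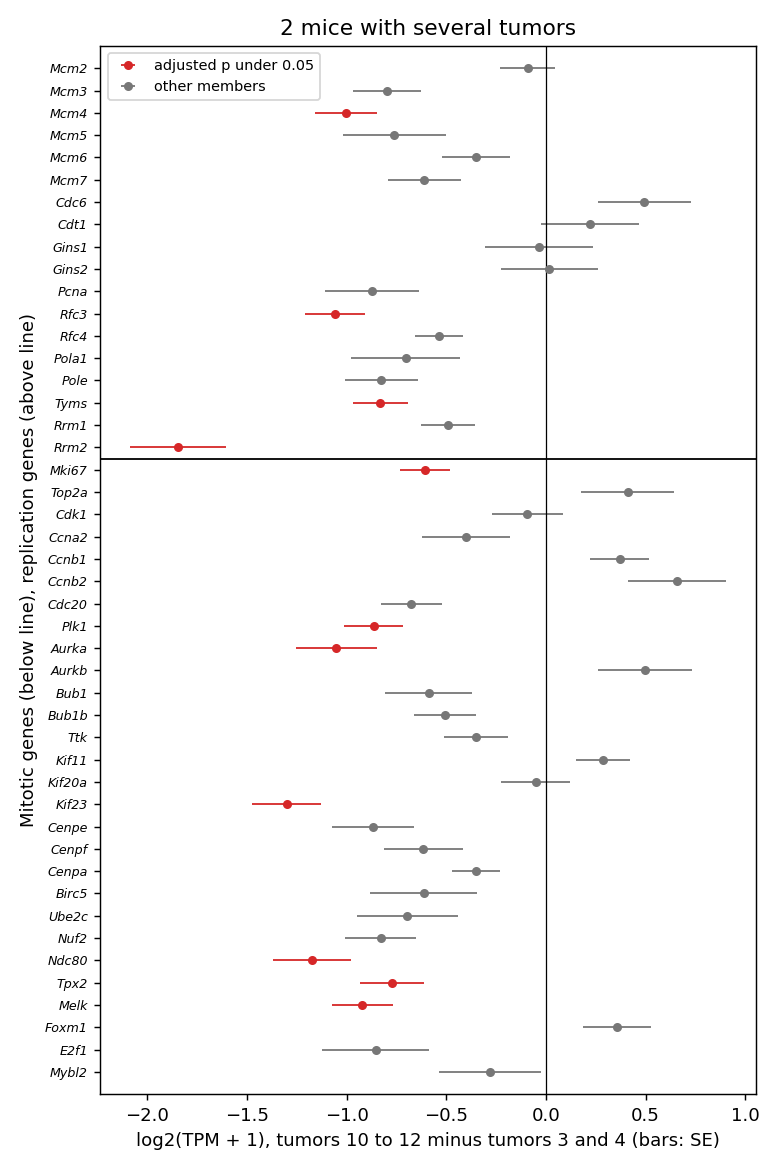
Difference of each member between the mean of tumors 10 to 12 and the mean of tumors 3 and 4 on log2(TPM + 1) (x axis), with SE from limma as bars. The 11 red points, all left of 0, are the members called at an adjusted p under 0.05, with Rrm2 farthest at -1.85.

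The slope on Mki67 was above 0 for all 45 other members, and for 8782 of 16801 genes (52.3%). In no gene did the slope on the Mki67 level of the mouse pass limma's test with Benjamini-Hochberg adjustment, the smallest adjusted p being 0.109, and 1444 of 16801 genes had a positive slope at an unadjusted p under 0.05. Among those 45 members, 39 had a positive slope at an unadjusted p under 0.05 by limma, where 8.59% of genes did, and none had a negative one. The slope was 1.06 ± 0.15 log2 units per log2 unit of Mki67 (SE) for Rrm1, 1.00 ± 0.16 for Pole and 0.95 ± 0.17 for Mcm7. Among mitotic genes it was 0.95 ± 0.18 for Cenpa and 0.86 ± 0.15 for Cdk1. The members that did not reach that p were Cdt1 (0.40 ± 0.30), Gins2 (0.40 ± 0.21), Aurka (0.56 ± 0.29), Melk (0.31 ± 0.20), Mybl2 (0.65 ± 0.30) and E2f1 (0.05 ± 0.36). The count was 25 without tumor 9, where 8.68% of genes had such a slope. Without tumors 2 and 9 it was 8, where 4.25% of genes had such a slope: Mcm7, Pole, Rrm1, Cdk1, Plk1, Cenpf, Birc5 and Ndc80. The slope was then above 0 for 16 of 18 replication and 25 of 27 mitotic genes, against 56.3% of all genes. Its median was 0.80 in both groups with all mice, and 0.32 over replication and 0.38 over mitotic genes without those tumors.

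Outside the list, 10 genes had the smallest unadjusted p with a positive slope: Kif22, Auts2, Stmn1, Cdc7, Tmpo, C330027C09Rik, Gm11223, Hmgn5, Depdc1a and Ccp110. Kif22, a chromosome-bound motor, ran from 19.4 to 112.5 TPM with a slope of 1.04 ± 0.12, and Cdc7, the kinase that fires licensed origins, from 6.59 to 86.2 TPM with a slope of 1.28 ± 0.18. Stmn1, a regulator of microtubules, ran from 70.3 to 487.6 TPM with a slope of 1.19 ± 0.16. Their adjusted p, by limma with Benjamini-Hochberg adjustment, was 0.109.

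Departures of many members from the common pattern were shared with neighbouring genes on the chromosome, but less so in several replication genes. This comparison was chosen after the values had been seen. For each member the median of up to 20 expressed genes around it (10 on each side, members left out) was set beside the member's own departure from the median of all members, in 7 mice, leaving out those of tumors 2 and 9. The member and its neighbours had a Pearson r of 0.64 over 322 values of 46 members in 7 mice. For 16671 other genes, set against the median of all genes, r was 0.32. Gene by gene over the 7 mice, r was above 0 for 42 of 46 members, against 80.1% of other genes. Its median was 0.73 per member and 0.48 per other gene. Below 0 were Mcm6 (-0.40), Mcm7 (-0.39) and Gins1 (-0.08) of the replication genes and Cenpa (-0.36) of the mitotic genes. The replication genes Pola1, Pcna, Rfc3 and Mcm5 had r from 0.02 to 0.13. The pooled r was not split by group. The values share tumors, and nearby members such as Cdc6 and Top2a share neighbours. With all 9 mice r was 0.39 for the members and 0.28 for the other genes. Of 34 departures of at least 0.5 on the log2 scale, 33 had the sign of their neighbours' median (97.1%), where 69.7% of such departures of the other genes did. Over all 322 values the share was 71.4%, and 64.3% for the other genes. With all 9 mice it was 40 of 49 departures, or 81.6%, and 65.9% for the other genes.

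In tumor 7, E2f1, Ube2c and Mybl2 on distal chromosome 2 departed upward by more than 0.5 on the log2 scale (GRCm38, GENCODE positions). E2f1 departed by 0.99 on the log2 scale in tumor 7, with its neighbours in chr2:153741274-155250277 at 0.40. Ube2c departed by 0.84 with neighbours in chr2:164424247-164911757 at 0.53, and Mybl2 by 0.54 with neighbours in chr2:160363703-163833146 at 0.59. Aurka, the last member along that chromosome, departed by 0.48 with neighbours in chr2:168634438-173034580 at 0.42. Tpx2 lies just before E2f1, and there the pattern was absent: it departed by -0.13, with neighbours in chr2:152337422-153333390 at -0.24. The high ratio of Ube2c to Cdc20 in tumor 7 set a gene with high neighbours against a gene with low neighbours: Cdc20 on chromosome 4 departed by -0.82 with neighbours at -0.48. Cdt1 on chromosome 8 departed by -0.86 in the same tumor with neighbours at -0.36. Upward departures past 0.5 in tumor 7 also lay elsewhere: Foxm1 on chromosome 6 departed by 0.65 with neighbours at 0.11, Nuf2 on chromosome 1 by 0.56 with neighbours at 0.27 and Ccna2 on chromosome 3 by 0.51 with neighbours at 0.16.

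In the mouse of tumors 3 and 4 several members departed from the others on the same side as their neighbours. Rrm2 on chromosome 12 departed by 0.96 with neighbours at 0.38. Ccnb2 on chromosome 9 departed by -1.01 with neighbours at -0.34, Kif11 on chromosome 19 by -0.86 with neighbours at -0.44, and Ccnb1 on chromosome 13 by -0.77 with neighbours at -0.42. Top2a and Cdc6 lie near each other on chromosome 11 and departed by -0.86 and -0.58 with neighbours at -0.32. In the same mouse the neighbours of other departing members lay nearer 0: Aurkb departed by -0.70 with neighbours at -0.08, Foxm1 by -0.74 with neighbours at -0.16 and Cdt1 by -0.62 with neighbours at -0.08. In tumor 7 Top2a and Cdc6 parted, with neighbours at 0.45, Top2a at 0.69 and Cdc6 at 0.00. Mki67 and Plk1, both on chromosome 7, were low against the other members in tumor 1, by -0.57 and -0.46, with neighbours at -0.26 and -0.39. Not every departure had such neighbours: Pcna departed by -0.42 in tumor 7 with neighbours at 0.08. Mcm6 kept closest to the common pattern, with an SD of its departure of 0.13 over 9 mice.

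**Figure D5:**
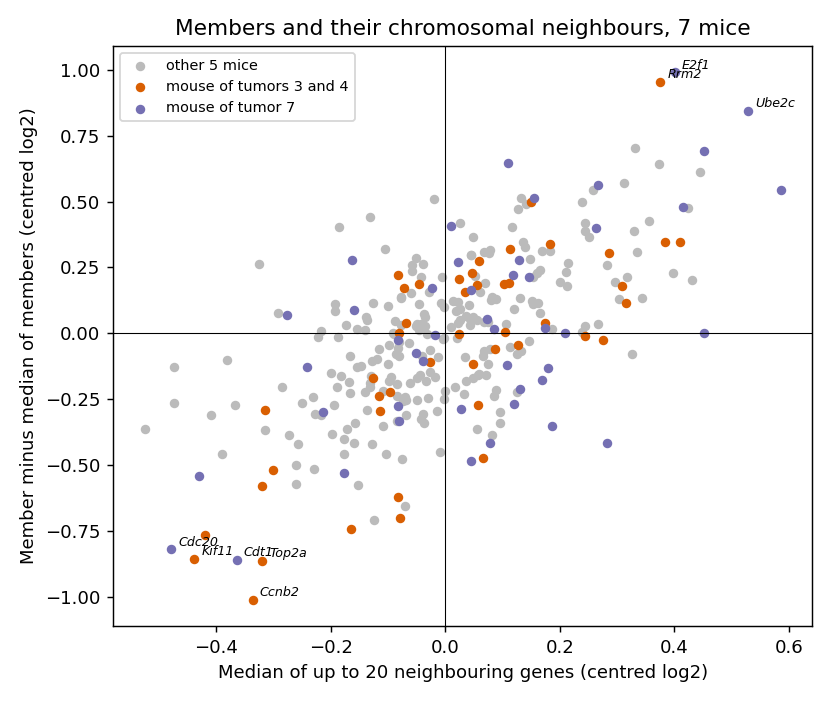
Departure of each member from the median of the members (y axis) against the median of up to 20 neighbouring expressed genes (x axis), both centred log2(TPM + 1), 322 points for 46 members in 7 mice without those of tumors 2 and 9. The points rise from lower left to upper right, and the labelled points, at 0.8 or more from 0, come from tumor 7 and from tumors 3 and 4.

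Wider lists of the same pathways were counted in the same way. Of 41 other replication genes 30 were called between mice by limma with Benjamini-Hochberg adjustment, with the smallest p for Cdc7, Prim1, Tipin, Rpa2, Rfc5 and Dut, and Rpa1 and Orc4 among those not called. Prim1, the primase subunit that starts new strands, ran from 8.78 TPM in tumor 9 to 134.8 TPM in tumor 2. Of 47 other mitotic genes 35 were called, led by Anln, Cks2, Kif22, Ncapg, Pbk and Kif15, with Fzr1 and Cdc25b among those not called. Of 20 genes of E2F, NF-Y and the complexes that read these promoters 8 were called, among them Lin37, Nfyc, E2f6, Nfyb, E2f7 and Tfdp1, with E2f3 and E2f2 among those not called. The background share of all genes was 43.1%, and 8 of 20 is near it. Without tumors 2 and 9 the counts were 1, 1 and 0, where 5.83% of all genes were called. Positive slopes on Mki67 at an unadjusted p under 0.05 were found for 30 of 41, 37 of 47 and 7 of 20 genes, against 8.59% of all genes. These counts fell to 9, 9 and 2 without tumors 2 and 9, against 4.25%. Between the mice with several tumors 3, 5 and 1 genes of these lists were called lower and 0, 1 and 1 higher, against 5.3% and 3.43% of all genes. Cenpk, a kinetochore gene, was the mitotic gene called higher, at 4.93 and 6.17 TPM in tumors 3 and 4 and 15.1, 19.1 and 15.3 TPM in tumors 10 to 12, a log2 difference of 1.42 ± 0.20 (adjusted p 0.029, limma).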

How the data were processed

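Whole-tumor polyA RNA of 12 tumors from 9 mice was made into stranded libraries. Per the study's methods, the authors aligned paired-end reads to the murine transcriptome (GRCm38) with HISAT2 and deposited StringTie 2.1.6 TPM values, 1 per Ensembl gene and tumor, with tumors not pooled. How transcripts were summed per gene is not given in the sources used here. TPM keeps no read number, which leaves depth and counting error unknown, and an abundant transcript lowers all others.

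From these, log2(TPM + 1) was computed and averaged per mouse (n = 9). Genes with a mean of 1 TPM or more over mice (16802) entered limma 3.58.1 (R 4.3.3, eBayes with a mean-variance trend, Benjamini-Hochberg adjustment over all genes): a moderated F-test between mice, a contrast of 2 mice and a slope on Mki67. The fits were tested on simulated data. Group medians, ratios, promoter letters and chromosomal neighbours (Python 3.11.15) are descriptions with no test. A GENCODE vM21 position was found for 47137 of 47593 identifiers. The alternatives were a pseudocount of 0.1, TPM rescaled without mitochondrial genes, other filters, no trend, means in place of medians, the mitotic list without its transcription factors, each tumor as a unit, and tumors or mice left out. All members are named. From other lists, up to 6 called genes with the smallest p and 2 with the largest p among those not called are named, with the 10 other genes of smallest p on the Mki67 slope. Members and lists were chosen with earlier results of these data known.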

Additional observations from a re-analysis of the deposited data

Results flagged for a closer look

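The value of 1 mouse lay far from those of the other 8 for 12 members and for the median of the 28 mitotic genes, out of 49 values examined (46 members, the medians of both groups and their difference). Chance flags about 1 in 20 such groups, and the genes share tumors. The measure is the gap between the extreme mouse and its nearest neighbour, divided by the range over 9 mice, on log2(TPM + 1). The share of all expressed genes with so large a gap was not counted. Whether the members exceed that share is therefore unknown.

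Tumor 9 was the low extreme in all but 1 of these 13. The ratio was 0.60 for Mcm6 and 0.50 for Gins2 among replication genes. Among mitotic genes it was 0.66 for Kif20a, 0.63 for Ccnb1, 0.62 for Tpx2, 0.59 for Bub1, 0.57 for Aurka, 0.57 for Ube2c, 0.53 for Foxm1, 0.51 for Kif23 and 0.51 for Mybl2. It was 0.64 for the median of the 28 mitotic genes, which stood at 4.11 in tumor 9 and at 5.50 in the next mouse. The median of the replication genes was not among them. Tumor 2 was the high extreme for Rfc4, with a ratio of 0.53 and a level of 6.73 against 5.57 in the next mouse.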

How the results depend on the processing

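No paired analysis was possible because the design has no pair of groups: the tumors share no replicate numbers across groups. Without centring, the mean difference between replication and mitotic genes stayed above 0 in every setting tried. It ran from 0.14 to 0.24 over the fits that left out 1 mouse each. After each gene was centred on its mean over mice, it was -0.004 ± 0.25 (SD, n = 9 mice). With no filter on low values, 26 members and 8825 genes were called between mice. Between the mice with several tumors 5 members (5 lower) and 1117 genes were called, and 1 gene had a slope on Mki67. Without the filter more genes are tested, and the share of them that was called was not computed. These member counts thus cannot be set against a background share. With each tumor as a unit 146 genes had a slope on Mki67, a fit in which tumors of 1 mouse count as separate. Without tumors 2 and 9, 979 genes and 1 member were called between mice, and 714 genes and 8 members had a positive slope on Mki67 at an unadjusted p under 0.05. The cause of these shifts was not tested. Over the fits that left out 1 tumor each, the count between mice ran from 2108 to 10351 genes and from 5 to 46 members, and the count between the mice with several tumors from 17 to 3499 genes and from 0 to 28 members, 0 to 25 of them lower. Over the fits that left out 1 mouse each the slope was called for 0 genes, and at an unadjusted p under 0.05 it was positive for 25 to 41 members and 1115 to 1539 genes. The correlation of members with their chromosomal neighbours, with settings chosen after seeing the data, was 0.63 with 5 neighbours on each side, 0.66 with neighbours at 5 TPM or more, and 0.39 with all 9 mice. The other settings listed under the methods kept each count within 1.5 times. TPM gives no read numbers, so depth sets no stated limit.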
